A study of Canis lupus familiaris with 6 samples.

Results

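The genes examined were 10 sensors and effectors of the inflammasome and NOD-like receptor system (NLRP1, NLRP3, NLRP12, NLRC4, NLRX1, NOD1, NOD2, PYCARD, CASP1 and GSDMD), chosen by gene symbol. Of the 10, 7 matched a gene name among the 31512 genes measured, and all 7 were among the 9847 genes tested. NLRP12, NLRC4 and CASP1 matched no gene name. Whole blood RNA came from 1.5-year-old Beagle dogs on day 30. The 3 dogs of the control group ate a maintenance diet and a 30 g snack without CPP-Se, a chelate of selenium with casein phosphopeptides, and the 3 dogs of the CPP-Se group ate the same diet and a 30 g snack with 0.03% CPP-Se. Each dog gave 1 library, which holds RNA of all blood cell types, so fewer cells of a type and less RNA per cell cannot be told apart.

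Inflammasomes are protein complexes that assemble in the cytosol of blood and tissue cells when a sensor detects microbial products or cell damage. A sensor of the NOD-like receptor family recruits the adaptor ASC (encoded by PYCARD), which in turn brings in the protease caspase-1. Caspase-1 matures the cytokines interleukin-1 beta and interleukin-18 and cuts gasdermin D, whose freed end forms pores in the membrane. Related NOD-like receptors work without an inflammasome: NOD1 and NOD2 signal to NF-kappa B after binding fragments of bacterial cell wall, and NLRX1, which resides at mitochondria, is known as a negative regulator of antiviral and NF-kappa B signaling.

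In the deposited FPKM, NLRX1 was higher in every CPP-Se dog than in any control dog, while NLRP3, NOD2 and PYCARD were lower in every CPP-Se dog than in any control dog and NLRP1, NOD1 and GSDMD overlapped. When the libraries were scaled to a common sum of FPKM, NLRX1 was still higher in every CPP-Se dog, but NLRP3, NOD2 and PYCARD overlapped and NLRP1 was lower in every CPP-Se dog. With that scaling the share of all genes tested that were lower without overlap went from 12.6% to 3.15%, and the share higher from 10.4% to 10.6%. NLRP3, NOD2 and PYCARD also overlapped with a common sum without hemoglobin, but stayed lower in every CPP-Se dog with median of ratios and quantile normalization. After adjustment over the 9847 genes, 0 of the 7 genes passed, where a call needed both a 1.5-fold change and, from limma on log2(FPKM + 1), a Benjamini-Hochberg adjusted p under 0.05. Over all genes tested, 0.0305% passed. Without adjustment, 4 of the 7 genes had a p under 0.05, against 16.0% of all genes tested, and the 2 groups did not overlap in 4 of the 7, against 23.0% of all genes tested. The first count fell to 1 of 7 with a common sum of FPKM (9.34% of all genes), with a common sum without hemoglobin (12.9%) and without control replicate 3 (11.5%), and to 2 of 7 without control replicate 1 (9.86%) or CPP-Se replicate 3 (16.7%). A log2 fold change below 0 was found for 5 of the 7 genes and one above 0 for 2, against 50.4% and 49.6% of all genes tested. Their median was -0.70, beside -0.0043 over all genes tested. Expression is given as FPKM, the fragments on a gene divided by its length, so that levels of different genes can be compared, and by a size of the library. The size recovered from the values was 0.882 to 1.05 times the reads on genes in 5 libraries and 1.65 times in CPP-Se replicate 2, and in 3 libraries it was below the reads on genes. The deposited FPKM of CPP-Se replicate 2 thus sum to 303449, against 458774 to 540009 in the other dogs. Scaling to a common sum therefore divided CPP-Se replicate 2 by 0.663 and the other dogs by 1.00 to 1.18. Scaling by median of ratios divided the deposited FPKM of all dogs by 0.984 to 1.01, so by that measure they were already on a similar scale.

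**Figure D1:**
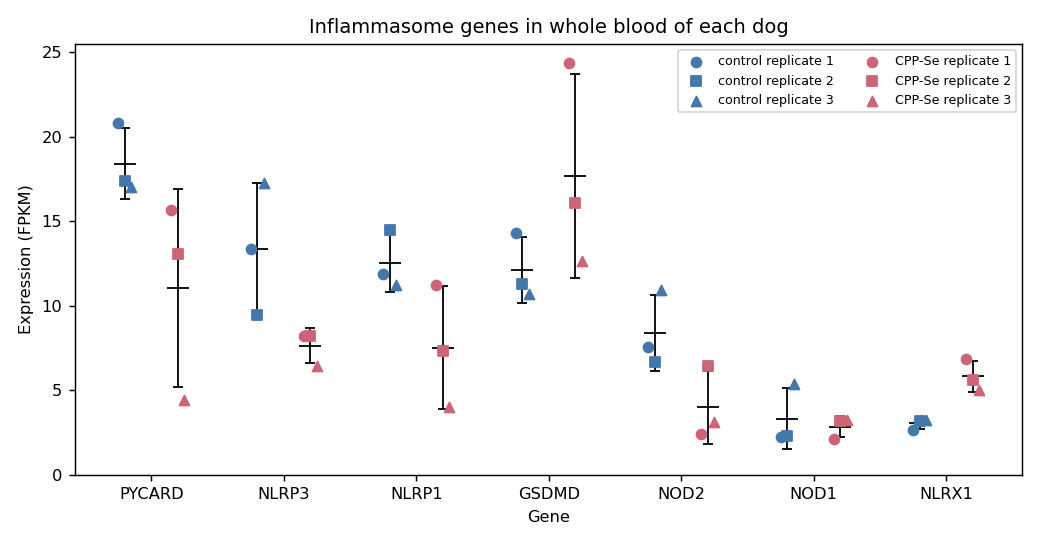
Expression (FPKM, vertical axis from 0) of the 7 genes in each of the 6 dogs, with 1 symbol per dog and with the mean and SD of each group in black. In these deposited values the 3 CPP-Se dogs lie below the 3 control dogs for PYCARD, NLRP3 and NOD2, which overlap with a common sum of FPKM, and above them for NLRX1.

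Of the sensors that build inflammasomes, NLRP3 responds to a broad range of damage signals such as potassium efflux. NLRP3 (ENSCAFG00000010686, chromosome 8, 253407 to 313059, plus strand) had 13.4, 9.45 and 17.2 FPKM in control replicates 1, 2 and 3 and 8.24, 8.23 and 6.46 FPKM in CPP-Se replicates 1, 2 and 3. The CPP-Se dogs were close to each other and all below the lowest control dog, and the control dogs spread more widely. The group means were 13.4 ± 3.90 FPKM and 7.65 ± 1.02 FPKM (SD, n = 3 in each group, as for all genes that follow). Its log2 fold change was -0.70, with a standard error of 0.24 and a 95% confidence interval from -1.26 to -0.15 (adjusted p = 0.235 by limma, Benjamini-Hochberg adjusted). These values rest on 147 to 515 reads per dog. With a common sum of FPKM, CPP-Se replicate 2 had 12.4 FPKM of NLRP3 and control replicate 2 had 8.36 FPKM, so the groups overlapped.

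NLRP1, a sensor that is activated when its inhibitory part is degraded, showed a weaker separation. NLRP1 (ENSCAFG00000015493, chromosome 5, 31266621 to 31299304, plus strand) had 11.9, 14.5 and 11.2 FPKM in control dogs, compared with 11.2, 7.33 and 3.98 FPKM in dogs given CPP-Se. CPP-Se replicate 1 thus reached the level of the lowest control dog, while CPP-Se replicates 2 and 3 were below it. The fitted log2 fold change was -0.75 (standard error 0.32, 95% confidence interval from -1.50 to -0.01, adjusted p = 0.304 by limma, Benjamini-Hochberg adjusted). It was -0.41 without CPP-Se replicate 3, which had the lowest level. The groups were apart with a common sum of FPKM, at 11.2 to 12.8 FPKM in controls and 3.38 to 11.1 FPKM in CPP-Se dogs.

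Both bacterial peptidoglycan sensors were measured. NOD2 (ENSCAFG00000009818, chromosome 2, 64635519 to 64667232, minus strand), which binds muramyl dipeptide, had 7.56, 6.68 and 10.9 FPKM in control dogs, compared with 2.39, 6.44 and 3.13 FPKM in dogs given CPP-Se. The groups did not overlap, but CPP-Se replicate 2 was only just below control replicate 2. NOD2 had the most negative log2 fold change of the 7 genes, -0.97, with a standard error of 0.32 and a 95% confidence interval from -1.72 to -0.23 (adjusted p = 0.224 by limma, Benjamini-Hochberg adjusted). With a common sum of FPKM, CPP-Se replicate 2 had 9.71 FPKM of NOD2, above control replicates 1 and 2 (7.28 and 5.92 FPKM).

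NOD1 (ENSCAFG00000003074, chromosome 14, 43163571 to 43227103, minus strand) binds another peptidoglycan fragment and was expressed at 2.26, 2.32 and 5.40 FPKM in control dogs, compared with 2.12, 3.16 and 3.27 FPKM in dogs given CPP-Se. The highest and the second lowest of the 6 values were control dogs, and the groups overlapped. Its log2 fold change of -0.11 had a 95% confidence interval from -0.82 to 0.60, which leaves changes in either direction possible, and it changed sign to 0.21 without control replicate 3, the dog with the highest level. Only 44 to 141 reads per dog lay on this gene.

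NLRX1 (ENSCAFG00000012187, chromosome 5, 14564935 to 14705257, minus strand) differed in the opposite direction. Its FPKM were 2.64, 3.21 and 3.26 in control dogs, compared with 6.83, 5.64 and 5.02 in dogs given CPP-Se, so that the lowest CPP-Se dog was above the highest control dog, as was also the case under each of the 4 other scalings. The means were 3.04 ± 0.342 FPKM and 5.83 ± 0.921 FPKM, a ratio of 1.92. On the log2(FPKM + 1) scale the difference was 0.75 (standard error 0.19, 95% confidence interval from 0.32 to 1.19, adjusted p = 0.167 by limma, Benjamini-Hochberg adjusted). NLRX1 passed the thresholds with a negative binomial model of the reads recovered from the FPKM (log2 fold change 0.94, adjusted p = 0.00646) and with limma-voom, using sample quality weights, on the same reads (log2 fold change 1.07, adjusted p = 0.0430). Each of these alternatives called only NLRX1 among the 7 genes, against 3.96% and 1.58% of all genes tested, while limma-voom without the weights called 0. NLRX1 is also in the study's own list of DEGs from these libraries, so its direction here is not independent evidence.

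The gene model of NLRX1 in the file spans 140323 bases and overlaps 6 other genes of the file, among them CBL and PDZD3 on the same strand and MCAM and CCDC153 on the other. In the RefSeq annotation of another dog assembly (UU_Cfam_GSD_1.0), NLRX1 lies between PDZD3 and ABCG4 and overlaps 0 protein-coding genes. CBL, a ubiquitin ligase and the most abundant of the overlapping genes, had 28.7, 27.2 and 30.3 FPKM in control dogs, compared with 17.0, 21.2 and 16.1 FPKM in dogs given CPP-Se, so CBL was lower in the dogs in which NLRX1 was higher. The second most abundant, PDZD3, had 0.889, 0.605 and 0.892 FPKM in control dogs, compared with 3.88, 1.24 and 0.541 FPKM in dogs given CPP-Se, and its groups overlapped. MCAM, a cell adhesion molecule on the other strand, was low but higher in every CPP-Se dog, as NLRX1 was, with 0.537, 0.261 and 0.415 FPKM in control dogs, compared with 0.885, 0.750 and 0.817 FPKM in dogs given CPP-Se. How reads in such overlaps were assigned is not given in the sources used here, and the part of these genes in the NLRX1 values was not tested.

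**Figure D2:**
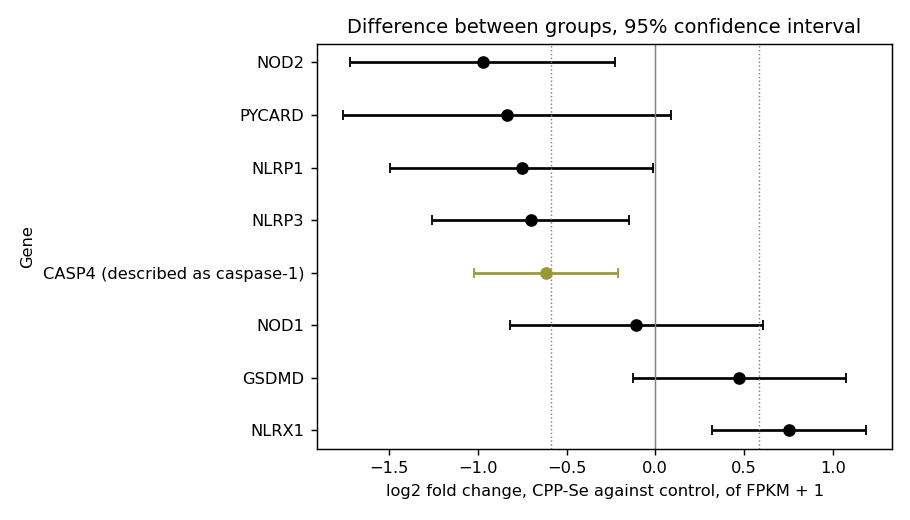
The log2 fold change of FPKM + 1 between the CPP-Se and control groups (horizontal axis) for the 7 genes and for CASP4, with 95% confidence intervals from limma, and with dotted lines at a 1.5-fold change in either direction. NLRX1 lies at 0.75 and NOD2 at -0.97, and the intervals of PYCARD, NOD1 and GSDMD include 0.

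PYCARD (ENSCAFG00000016865, chromosome 6, 17049705 to 17051240, plus strand) encodes the adaptor ASC, which links the sensors to caspase-1. It had 20.8, 17.4 and 17.0 FPKM in control dogs, compared with 15.6, 13.1 and 4.42 FPKM in dogs given CPP-Se, without overlap. CPP-Se replicate 3 stood far below the other CPP-Se dogs, and its value rests on 20 reads, against 74 to 129 reads in the other dogs. The log2 fold change was -0.84 (standard error 0.40, 95% confidence interval from -1.76 to 0.09, adjusted p = 0.360 by limma, Benjamini-Hochberg adjusted). Without CPP-Se replicate 3 it was -0.34. With a common sum of FPKM, CPP-Se replicate 2 had 19.8 FPKM of PYCARD, above control replicates 2 and 3 (15.4 and 17.0 FPKM).

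GSDMD (ENSCAFG00000001301, chromosome 13, 37193022 to 37228360, plus strand) encodes the pore-forming effector gasdermin D. Its FPKM were 14.3, 11.3 and 10.7 in control dogs, compared with 24.4, 16.1 and 12.6 in dogs given CPP-Se. CPP-Se replicates 1 and 2 were above all control dogs, while CPP-Se replicate 3 was below control replicate 1. Its log2 fold change was 0.47 (standard error 0.26, 95% confidence interval from -0.12 to 1.07, adjusted p = 0.416 by limma, Benjamini-Hochberg adjusted) and was 0.23 without CPP-Se replicate 1, the dog with the highest level. ZC3H3 on the other strand overlaps the gene model of GSDMD, and was lowest in CPP-Se replicate 3 (6.40 FPKM, against 11.3 to 13.5 FPKM in the other dogs).

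Although no gene was named CASP1, the gene named CASP4 (ENSCAFG00000014860, chromosome 5, 27132565 to 27149736, plus strand) is described in the file as caspase-1, and RefSeq lists CASP1 as a synonym of the dog CASP4 gene. It had 7.47, 7.02 and 6.13 FPKM in control dogs, compared with 4.41, 4.39 and 3.60 FPKM in dogs given CPP-Se. All CPP-Se dogs were below all control dogs, and neither group spread widely, but the groups overlapped with a common sum of FPKM. The means were 6.87 ± 0.683 FPKM and 4.14 ± 0.461 FPKM, and the log2 fold change of -0.62 (standard error 0.18, 95% confidence interval from -1.02 to -0.21) did not pass (adjusted p = 0.186 by limma, Benjamini-Hochberg adjusted).

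Another 3 genes without a symbol are described in the file as NLRP12, which belongs to a multigene family, so reads may have been shared between copies. The only 1 of these that was tested, ENSCAFG00000002723 (chromosome 1, 103571393 to 103604594, plus strand), had 2.55, 1.25 and 0.996 FPKM in control dogs, compared with 1.29, 0.371 and 0.923 FPKM in dogs given CPP-Se, with overlap. The description of NLRC4, the sensor that is partnered by NAIP proteins, was found for 0 genes, and NLRC4 was not analysed here.

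The order of the expression levels differed between the groups. In the control dogs, mean FPKM fell from PYCARD (18.4) through NLRP3 (13.4), NLRP1 (12.5), GSDMD (12.1), NOD2 (8.39) and NOD1 (3.32) to NLRX1 (3.04), and only NOD2 and NOD1 were neighbors whose ranges did not overlap. In the CPP-Se dogs, GSDMD was first (17.7), followed by PYCARD (11.1), NLRP3 (7.65), NLRP1 (7.52), NLRX1 (5.83), NOD2 (3.98) and NOD1 (2.85), and the ranges of all neighbors overlapped. Against the other genes tested, the 7 genes were of middle to fairly high abundance, with means over all dogs above those of 34.3% (NOD1) to 75.7% (GSDMD) of the genes.

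The ratio of NLRX1 to NLRP3 within a library is not altered by any scaling that uses 1 factor per library. It was 0.198, 0.340 and 0.189 in control dogs, compared with 0.829, 0.685 and 0.777 in dogs given CPP-Se. The lowest ratio of the CPP-Se dogs was above the highest ratio of the control dogs. On the log2 scale the mean ratio was -2.10 ± 0.470 in the control group and -0.39 ± 0.141 in the CPP-Se group, a difference of 1.71 or 3.26-fold. Because NLRX1 was higher and NLRP3 lower in every CPP-Se dog in the deposited FPKM, the ratio had to separate the groups, so it is given as a description with no test.

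**Figure D3:**
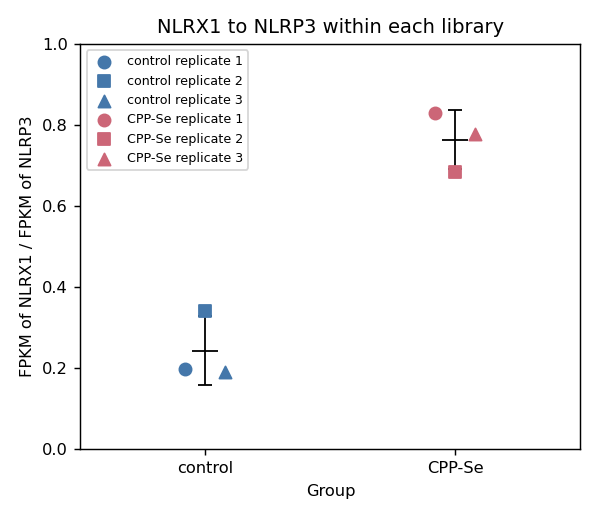
FPKM of NLRX1 divided by FPKM of NLRP3 (vertical axis, no unit) in each of the 6 dogs, with the mean and SD of each group in black. The control dogs lie between 0.189 and 0.340 and the CPP-Se dogs between 0.685 and 0.829.

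The genes tested with a symbol whose pattern over the 6 dogs was most like that of NLRX1 were ATP13A2, ZBTB48 and CCDC61. Their centered log2(FPKM + 1) differed from that of NLRX1 by a root mean square of 0.0597, 0.0737 and 0.0776, while NLRX1 itself varied by 0.399. The pattern of NLRP3, which varied by 0.433, was most like those of WDFY1 (0.0384), SIN3B (0.0601) and APLP2 (0.0767). For example, WDFY1 had 14.4, 9.41 and 18.4 FPKM in control dogs, compared with 8.76, 8.69 and 6.54 FPKM in dogs given CPP-Se.

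Other genes of the inflammasome and NOD-like receptor pathways were examined as 5 lists with 62 genes, of which 51 were in the file and 45 were tested. None of the 45 passed the thresholds (limma, with Benjamini-Hochberg adjusted p between 0.138 and 0.995), while limma-voom called 0, limma-voom with sample quality weights called 1 and the negative binomial model called 1, in each case MEFV, against 1.58% and 3.96% of all genes tested. Before adjustment, 10 of the 45 genes had a p under 0.05, or 22.2% (16.0% of all genes tested). This share was 4.44% with a common sum of FPKM (9.34% of all genes tested), 6.67% with a common sum without hemoglobin (12.9%), and 13.3% without control replicate 1 (9.86%), control replicate 3 (11.5%) or CPP-Se replicate 1 (13.0%). With the negative binomial model 12 genes had such a p (16.7% of all genes tested), and limma-voom, using sample quality weights, gave 13 (20.5%). Of the 45 genes, 8 were lower in the CPP-Se group with a p under 0.05 by limma on log2(FPKM + 1), against 9.10% of all genes tested. Another 2 of the 45 were higher with such a p, against 6.87% of all genes tested. The groups did not overlap in 13 of the 45 genes. Of the 45, 11 were lower and 2 were higher in the CPP-Se group without overlap, against 12.6% and 10.4% of all genes tested. With a common sum of FPKM, 1 of the 45 was lower and 3 were higher without overlap (3.15% and 10.6% of all genes), and with a common sum without hemoglobin 3 and 3 (4.84% and 13.4%). The median log2 fold change of the 45 genes was -0.12.

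Among the 3 other sensors tested, MEFV, which encodes the sensor pyrin, had the largest difference of the 45 genes. It had 7.30, 5.91 and 8.11 FPKM in control dogs, compared with 3.12, 2.36 and 1.02 FPKM in dogs given CPP-Se, and all CPP-Se dogs were far below all control dogs. The fitted log2 fold change was -1.41 (standard error 0.29, adjusted p = 0.138 by limma, Benjamini-Hochberg adjusted). MEFV and TXNIP are in the study's own list of DEGs from these libraries, so their direction is not independent evidence. CIITA, a NOD-like receptor that drives transcription of MHC class II genes, had a log2 fold change of 0.54 with overlap between the groups.

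Of the 10 regulators of inflammasome assembly tested, 6 had a log2 fold change above 0 and 4 below 0. TXNIP, a thioredoxin-binding protein known as a partner of NLRP3, went from 223 ± 29.6 FPKM in the control group to 141 ± 15.1 FPKM in the CPP-Se group, and the groups did not overlap (log2 fold change -0.66). NEK7, the kinase that NLRP3 needs to assemble, was also lower in every CPP-Se dog (log2 fold change -0.33, adjusted p = 0.386 by limma, Benjamini-Hochberg adjusted). DPP9, an inhibitor of NLRP1, was higher in every CPP-Se dog (log2 fold change 0.34, adjusted p = 0.441 by the same test). Its highest control dog had 6.44 FPKM and its lowest CPP-Se dog 6.87 FPKM. With a common sum of FPKM, TXNIP and NEK7 overlapped between the groups and DPP9 did not.

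In the list of NOD1 and NOD2 signaling, 13 of 17 genes had a log2 fold change below 0, against 50.4% of all genes tested, and the median was -0.33. The groups did not overlap in 5 of the 17, which were lower in the CPP-Se dogs, against 12.6% of all genes tested. All 5 overlapped with a common sum of FPKM, where 3.15% of all genes tested were lower without overlap. BIRC3, a ubiquitin ligase of this pathway, had 18.9 ± 0.525 FPKM in controls, compared with 12.8 ± 1.36 FPKM in CPP-Se dogs, with overlap only when scaled to a common sum of FPKM (log2 fold change -0.53, adjusted p = 0.207 by limma, Benjamini-Hochberg adjusted). RIPK2, the kinase that relays signals of both receptors, had a log2 fold change of -0.33 with overlap. The gene of this list with the lowest p among those higher in the CPP-Se group was TAB1, with a log2 fold change of 0.47 and overlap.

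The 5 genes listed as mitochondrial and autophagy partners of NLRX1 had a median log2 fold change of 0.02. TUFM, a mitochondrial elongation factor, had 10.3 ± 0.0737 FPKM in controls, compared with 15.0 ± 2.37 FPKM in CPP-Se dogs, without overlap (log2 fold change 0.50). MAVS, the antiviral adaptor that NLRX1 is known to bind, had 8.53 ± 1.00 FPKM and 8.84 ± 0.991 FPKM (log2 fold change 0.05, 95% confidence interval from -0.37 to 0.46). ATG12 had a log2 fold change of -0.34 with overlap.

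The last list held caspases, other cell death effectors and the cytokine substrates, of which 10 genes were tested. Beside CASP4, RIPK1 was lower in every CPP-Se dog (log2 fold change -0.49), though not with a common sum of FPKM, and GSDMA, another gasdermin, had 0.822 ± 0.482 FPKM in controls, compared with 2.40 ± 1.34 FPKM in CPP-Se dogs with overlap (log2 fold change 0.86). GSDMA rests on 3 to 33 reads per dog and was higher in every CPP-Se dog with a common sum of FPKM, at 0.318 to 1.15 FPKM in controls and 1.77 to 3.56 FPKM in CPP-Se dogs. The substrates of caspase-1 overlapped between the groups, with log2 fold changes of -0.53 for IL1B (95% confidence interval from -1.54 to 0.47) and -0.12 for IL18 (95% confidence interval from -0.68 to 0.44).

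**Figure D4:**
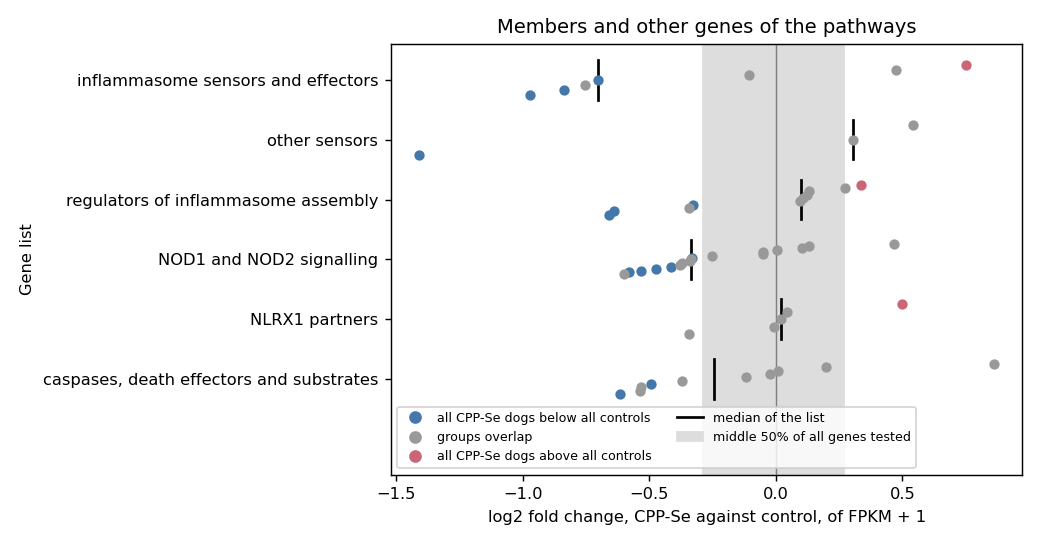
The log2 fold change of FPKM + 1 between the CPP-Se and control groups (horizontal axis) for each gene tested in 6 lists, with the median of each list as a black bar and the interquartile range of all genes tested, from -0.29 to 0.27, in grey. Blue points mark genes with all CPP-Se dogs below all control dogs in the deposited FPKM, and the median of the sensors and effectors lies at -0.70.

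Of the markers of 7 blood cell types, 0 passed the thresholds (limma, with Benjamini-Hochberg adjusted p of at least 0.192), while the summed levels of 4 types did not overlap between the groups in the deposited FPKM. The summed FPKM of the monocyte markers in the file (7 of 8 listed, with FCN1 at 0 in every dog and CD14 not analysed here) was 256 to 379 in the control dogs and 184 to 210 in the CPP-Se dogs, and 3 of the 7 were lower in every CPP-Se dog, against 12.6% of all genes tested. CD68, whose groups overlapped, made up much of this sum, and CX3CR1 had a log2 fold change of -0.03. The B cell sum (6 of 6 markers) was 272 to 392 in the control dogs and 402 to 451 in the CPP-Se dogs. CD79A, whose groups overlapped, made up most of this sum, while 3 of the 6 were higher in every CPP-Se dog, against 10.4% of all genes tested. The T cell sum (9 of 9) was 1021 to 1332 and 792 to 971, and CD4, which dog neutrophils also carry, made up most of it, while CD3E and TCF7 were higher in every CPP-Se dog. The NK and cytotoxic cell sum (5 of 6) was 3.38 to 10.3 and 12.1 to 18.3. Of its genes, 1 of the 5 in the file but 0 of the 4 tested were higher in every CPP-Se dog. GZMA had only 3 reads in control replicate 3. The sums of neutrophil (5 of 8), red cell (5 of 5) and platelet (2 of 5) markers overlapped, at 1017 to 1909 and 1138 to 1731, 1302 to 3458 and 2249 to 3325, and 489 to 1126 and 367 to 1386, respectively. With a common sum of FPKM, the monocyte, T cell and B cell sums overlapped as well, at 227 to 378 and 163 to 318 for monocytes, while the NK and cytotoxic cell sums did not. The part of these markers in the differences of the sensors and effectors was not tested.

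Depth on genes ranged from 6598173 to 8067034 reads over the dogs. CPP-Se replicate 2 stood apart with 36.6% of its reads on hemoglobin genes, against 48.7% to 55.9% in the other dogs, and without it the log2 fold changes were 0.77 for NLRX1, -0.75 for NLRP3, -1.30 for NOD2 and -1.02 for PYCARD.

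**Figure D5:**
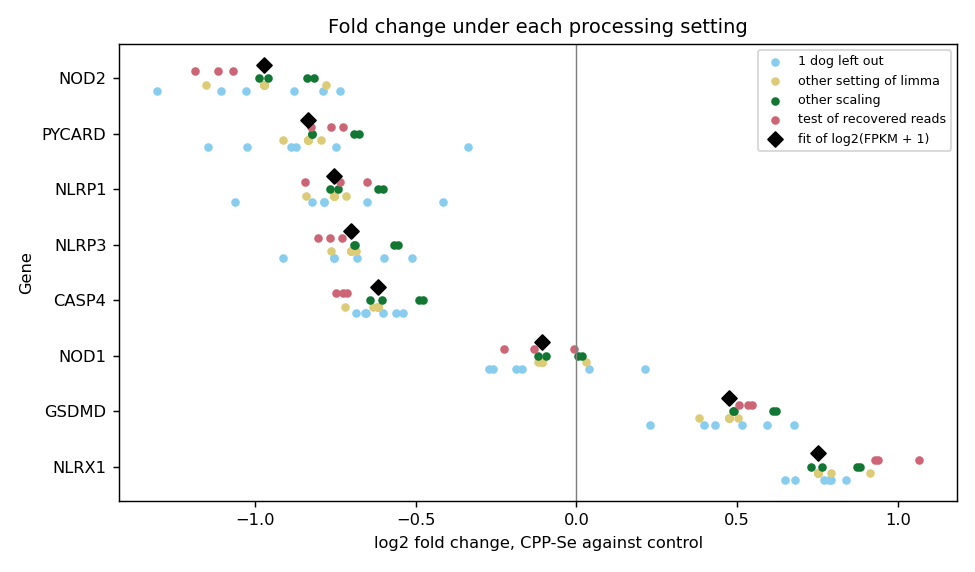
The log2 fold change between the CPP-Se and control groups (horizontal axis) of the 7 genes and CASP4 in the fit of log2(FPKM + 1), shown as black diamonds, and under 20 other settings, shown as points colored by kind. NLRX1 and GSDMD stay above 0 and NOD2, PYCARD, NLRP1, NLRP3 and CASP4 below 0 under all of them, while NOD1 lies on both sides.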

How the data were processed

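Whole blood RNA of 6 dogs, 1 library each, was compared between groups taken from the library titles. The authors enriched poly-A RNA, used HISAT2 2.0.5 to align paired reads, with the dog genome taken from Ensembl release 100, and assembled them with StringTie. The submitters' processing notes also name featureCounts 1.5.0-p3 and fastp 0.19.7. The deposited values are FPKM per gene, which the authors computed from gene length and mapped reads. The coordinates are those of the file. The library size behind the FPKM and the use of strand are not given in the sources used here. Reads per gene were recovered from the product of FPKM and gene length, taken in units of 1 read of the library, and 100% of the quotients were whole (tolerance 0.01).

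Genes whose FPKM averaged 1 or more over the dogs were tested on log2(FPKM + 1) with limma 3.58.1 (lmFit, eBayes with trend, two-sided) in R 4.3.3, since FPKM are not counts. This pseudocount understates the change of genes with few FPKM. Tables and figures were made in Python 3.11.15. Precision is limited by 3 dogs per group, and read numbers cover counting error only. The alternatives were a pseudocount of 0.1, other filters, 4 other scalings, other settings of limma, replicate number as a block, limma-voom and a negative binomial model (Wald test) on the recovered reads, and each dog left out. Whether groups overlapped under each scaling was added after the data were seen. On simulated data with 200 of 9847 genes changed 4-fold, 172 were recovered with 13 false calls by the limma test and 178 with 13 by the negative binomial model. With no gene changed, the limma test made 3 calls, as many as on the real data, and limma-voom and the negative binomial model made 0. The simulation gave every gene the same dispersion and used the recovered library sizes as exact, with no outlying dog. It therefore does not give the number of false calls on the real data. The dispersion trend of the latter was revised after a first form made more false calls there and after its calls on the real data had been seen.

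All members were named with their values, as were the genes with the lowest p in each direction in every pathway list, and the 3 genes most like NLRX1 and NLRP3. CASP4 as caspase-1, the genes described as NLRP12 or CARD8, CBL, PDZD3, MCAM, ZC3H3, NEK7, RIPK2, MAVS, RIPK1, IL1B and IL18 were named after their values were seen. The members and lists were chosen with earlier results of these data known.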

Additional observations from a re-analysis of the deposited data

How the results depend on the processing

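Of the 7 genes, NLRX1, GSDMD, NOD2, PYCARD, NLRP1 and NLRP3 kept their direction under all 20 other settings. NLRX1 ranged from 0.65 to 1.07 on the log2 scale (adjusted p from 0.00646 to 0.462, limma or negative binomial model), and NLRP3 from -0.91 to -0.51 (adjusted p from 0.0912 to 0.701). NOD1 changed sign with a common sum of FPKM (0.018), a common sum without hemoglobin (0.0044), array weights (0.031), without control replicate 3 (0.21) and without CPP-Se replicate 1 (0.039), and ranged from -0.27 to 0.21 with a dog left out. Both common sums raised the median of all genes tested, to 0.13 and 0.12, and relative to these NLRX1 was at 0.76, NLRP3 at -0.68 and NOD1 at -0.11 under each. Calls among the 7 genes went from 0 to 1 with limma-voom with sample quality weights and to 1 with the negative binomial model, as did those among the pathway genes. Over all genes tested, 3 were called, against 0 with a pseudocount of 0.1, 0 without a filter, 1 with a mean of at least 10 reads, 12 with a common sum of FPKM, 1 with limma-voom, 156 with limma-voom with sample quality weights, 390 with the negative binomial model, and 0 to 14 with a dog left out, where 14 were called without CPP-Se replicate 2. The cause was not tested. The separation of the groups in NLRP3, NOD2 and PYCARD was lost with both common sums and kept with median of ratios and quantile normalization. Replicate number as a block called 1 gene over all and 0 of the 7. Same-numbered dogs did not deviate together (correlations across genes 0.0165, -0.0900 and -0.0433), and 0 of 3 control dogs were most like the CPP-Se dog of their number. PYCARD and NOD1 had the fewest reads of the 7 genes, down to 20 and 44 in a dog.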

Other observations

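A further inflammasome sensor, CARD8, was found only by the description of its rows and was chosen after its values were seen. Of the 2 genes so described, ENSCAFG00000029414 (chromosome 1, 108003633 to 108058573, plus strand) had 119, 137 and 6 reads in control replicates 1, 2 and 3 and 57, 85 and 39 reads in CPP-Se replicates 1, 2 and 3. ENSCAFG00000043942 (chromosome 1, 108040101 to 108053200, plus strand), which lies inside the first, had 62, 59 and 7 reads in control dogs, compared with 32, 57 and 18 reads in dogs given CPP-Se. Control replicate 3 was thus the lowest dog for both, and the groups overlapped, with log2 fold changes of -0.26 and -0.22 (adjusted p = 0.890 and 0.895 by limma, Benjamini-Hochberg adjusted). As the gene models overlap, they are not separate measurements.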
